A study of Macaca mulatta with 24 samples.

Results

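A set of 10 genes of platelet granules and platelet shape was followed in the whole blood of rhesus macaques through the first week after total body irradiation: PF4, PPBP, SELP, VWF, CLU, THBS1, SPARC, MYL9, NRGN and TUBB1. The members were all probes that the scanner output names with 1 of these symbols, which were 10 of 43603 non-control probes and covered 8 of the 10 genes. CLU and SELP had 2 probes each, and PF4 and THBS1 had no probe of that name. A probe that carries the PF4 transcript under the name LOC703451 was matched by its accession, and its values are given beside the members but outside their counts. All 10 member probes passed the filter on dim signals (4 or more of the 24 arrays well above background) and were tested.

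The blood came from adult Macaca mulatta of Chinese origin, aged 5 to 10 years, males and females, that received 4 Gy to the total body. The 24 arrays were 7 from before irradiation, 4 from day 3, 6 from day 5 and 7 from day 7, and the replicate number marks the animal. The labels name X-rays and put the first sample at day 0, while the study's methods name a cobalt gamma source and a first sample 3 days before exposure. Blood was drawn repeatedly from the same animals, globin transcripts were removed in every group, and arrays of sham-irradiated animals were not analysed here.

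Platelets are fragments shed by megakaryocytes of the marrow, and they carry RNA but no nucleus. Their alpha granules store chemokines, adhesive proteins and matrix proteins that are released when the platelet is activated, and P-selectin of the granule membrane then appears on the surface, where leukocytes bind it. A coiled band of microtubules holds the resting platelet in its disc shape, and phosphorylation of the myosin light chain drives the contraction that changes it.

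The sequences of 5 probes are printed, 5′ to 3′ in lower case, to show what the signals of PPBP, PF4, VWF and TUBB1 read. The SELP sequence is that of its second probe, and the SELP levels below are those of its brightest probe unless the second is named. Positions are those of the array's annotation in the scanner output, on the rhesus build rheMac2, and coding and untranslated parts were not assigned. The PPBP probe (chr5:55664003-55664062, plus strand) and the PF4 probe (chr5:55670280-55670339, plus strand) were neighbours 6.22 kb apart. The VWF probe (chr11:6066319-6066879, minus strand) covered 561 bases of genome with 60 bases of sequence, and the SELP probe shown (chr1:199296160-199297449, minus strand) covered 1290, so both skip genomic sequence as a spliced transcript does. The TUBB1 probe (chr10:5501855-5501914, minus strand) had 1 of its 3 forward reading frames free of stop codons, as had the printed PPBP, VWF and SELP probes. The PF4 probe had none.
PPBP: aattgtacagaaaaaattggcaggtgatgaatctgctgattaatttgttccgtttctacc
PF4 (LOC703451): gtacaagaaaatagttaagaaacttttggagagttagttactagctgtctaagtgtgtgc
VWF: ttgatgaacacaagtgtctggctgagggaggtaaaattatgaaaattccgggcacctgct
SELP: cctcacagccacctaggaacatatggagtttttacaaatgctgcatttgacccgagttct
TUBB1: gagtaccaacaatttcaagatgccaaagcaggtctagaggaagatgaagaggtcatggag

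The other SELP probe (chr1:199294869-199294928, minus strand) and the SPARC probe (chr6:148097551-148097610, minus strand) held the polyadenylation hexamers AATAAA or ATTAAA, searched on the printed strand. These were 2 of 10 member probes, against 11.4% of all probes. The remaining probes were those of MYL9 (chr10:27947160-27947219, minus strand), NRGN (chr14:122898284-122898343, plus strand) and CLU (chr8:27744782-27744841 and chr8:27746177-27746236, minus strand).

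Between 48.3% and 61.2% of probes were well above background on an array, and no member spot was saturated. Scan session 1 held 6 pre-irradiation and 6 day 7 arrays, and session 2 held all day 3 and day 5 arrays with the pre-irradiation and day 7 arrays of replicate 5. Replicate 3, the animal with the lowest mean of the members before irradiation, had no day 3 array. The number of arrays limits the precision. Levels are normalized log2 processed signals of the brightest probe of a gene, differences are log2 changes with their standard error (SE), and a gene was called at an adjusted p under 0.005 by limma with Benjamini-Hochberg adjustment over all probes tested.

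At day 3 the platelet granule and shape genes stood well above their pre-irradiation levels. Of the 8 members, 7 rose and none fell by limma, where 13.4% of all probes passed, 6.08% higher and 7.32% lower. The members' log2 changes ran from 1.96 to 3.45 around a median of 3.09, and the median of all probes was 0.06. In the same 7 genes every day 3 array lay above all 7 pre-irradiation arrays, as in 9.84% of all probes. SPARC was the exception, with 3 of 4 arrays above. From the array signal of bulk blood alone, a change in the number of platelets or their precursors and a change in RNA per cell cannot be told apart. The study counted platelets in these animals and reports a fall that began after the first week. Those counts were not set beside the arrays here.

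PPBP encodes pro-platelet basic protein, the precursor of a chemokine that draws neutrophils. Its log2 signal ran from 13.58 through a median of 14.31 to 15.56 before irradiation and was 17.97, 17.44, 17.81 and 17.25 on the 4 day 3 arrays. At day 5 it ran from 15.37 through 15.56 to 15.86, and at day 7 from 13.68 through 14.55 to 15.54. The day 3 arrays stood apart from every other array, 3 of 6 day 5 arrays lay above the pre-irradiation range, and the day 7 arrays lay within it. PPBP changed at day 3 by a log2 value of 3.11 ± 0.36 (SE), a fold of 8.61, with adjusted p = 0.000195 by limma.

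PF4, platelet factor 4, is the chemokine that binds heparin. The probe matched by accession ran from 14.73 through 15.94 to 16.28 before irradiation and was 18.23, 18.04, 18.12 and 17.53 at day 3. At day 5 it ran from 15.51 through 16.18 to 16.51, and at day 7 from 13.67 through 14.92 to 15.93. Its 4 day 3 arrays were the highest of all 24. Its log2 change at day 3 was 2.42 ± 0.32 (SE), with adjusted p = 0.000372 by limma. PF4 has a near-identical copy in primates, so a share of this signal may belong to the copy.

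CLU encodes clusterin, a chaperone that platelets and plasma both carry. In the fit without a block it had the largest change of the members at day 3, but not with the animal or the session as a block. The log2 signal of its brightest probe ran from 9.46 through 10.56 to 11.53 before irradiation and was 14.56, 14.82, 13.49 and 12.92 at day 3. All 6 day 5 arrays, from 11.87 through 12.61 to 13.32, still lay above the pre-irradiation range, while the day 7 arrays ran from 9.83 through 10.97 to 13.14 and 3 of 7 lay above it. The log2 change was 3.45 ± 0.46 (SE) at day 3, a fold of 10.9, with adjusted p = 0.000389 by limma. The second CLU probe gave 3.53 ± 0.45, and both probes moved together over the 24 arrays with r = 0.99.

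VWF encodes von Willebrand factor, which tethers platelets to exposed collagen. It ran from 7.94 through 8.66 to 10.17 before irradiation, was 11.88, 12.07, 11.52 and 12.78 at day 3, ran from 9.52 through 10.28 to 12.27 at day 5 and from 7.70 through 10.004 to 11.42 at day 7. The groups before irradiation and at day 3 did not overlap, 1 of 6 day 5 arrays lay within the day 3 range, and all 7 day 7 arrays lay below it. VWF had a log2 change at day 3 of 3.08 ± 0.40 (SE), a fold of 8.46, with adjusted p = 0.000356 by limma.

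SELP encodes P-selectin. Its brightest probe ran from 8.97 through 10.91 to 11.83 before irradiation, was 14.78, 13.91, 13.85 and 13.15 at day 3, ran from 10.97 through 12.50 to 13.05 at day 5 and from 10.13 through 11.65 to 12.53 at day 7. All day 3 arrays lay above every array of the other groups. The log2 change at day 3 was 3.20 ± 0.50 (SE) with adjusted p = 0.000842 by limma in the brightest probe, and 2.46 ± 0.45 with adjusted p = 0.00195 in the second, and the probes moved together with r = 0.93 over the 24 arrays.

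VWF and SELP are also genes of the vessel lining. Only 2 of 5 endothelial marker genes were bright enough to test, 4 of the 5 were well above background on no pre-irradiation array and 3 on no day 3 array. The summed linear signal of the tested pair was 72.5 to 113 before irradiation and 49.4 to 95.01 at day 3. It ran from 39.0 to 632 at day 5, where the highest value was that of replicate 2, the array with the second highest VWF signal of its day (11.33), and from 44.2 to 136 at day 7. The part of endothelial cells in the VWF and SELP values was not tested.

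SPARC, the matrix protein osteonectin of alpha granules, was near background in part of the samples and varied widely. It was well above background on 3 of 7 pre-irradiation arrays, 4 of 4 at day 3, 6 of 6 at day 5 and 6 of 7 at day 7. Its signal ran from 3.52 through 5.23 to 6.52 before irradiation, was 9.21, 8.11, 7.21 and 6.22 at day 3, and ran from 5.80 through 7.11 to 11.24 at day 5 and from 3.92 through 5.92 to 10.19 at day 7. The 3 highest of its 24 values came from day 5 replicate 6 and day 7 replicates 1 and 2, not from day 3. The log2 change at day 3, 2.64 ± 0.61 (SE), did not pass the threshold by limma (adjusted p = 0.00684), although SPARC was higher in 4 of 4 animals with both arrays. With normexp background correction this change was 0.65 (adjusted p = 0.389), and that at day 5 was 0.97 where it is 2.53 otherwise.

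Of 5 stromal marker genes 4 had a probe and 3 were tested, and their summed linear signal was 2135 on day 5 replicate 6 and 1043 and 2371 on day 7 replicates 1 and 2, against 80.3 to 600 before irradiation. The sums ran from 185 to 940 at day 3, from 390 to 2135 at day 5 and from 221 to 2371 at day 7. COL1A2, a collagen chain, was the 1 of 3 that rose, at day 5 (log2 change 2.37 ± 0.48) and day 7 (2.49 ± 0.57). The shares of all probes that rose were 7.53% and 3.8%. COL1A2 rose with the animal as a block too (limma adjusted p of 0.00368 and 0.00350), where 6.45% and 2.61% of all probes did. With the session as a block no stromal marker rose on either day. Over the 24 arrays the log2 signal of SPARC and the log2 of that sum had r = 0.76, a description of arrays that share animals and sessions. The part of other SPARC-expressing cells in these values was not tested.

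MYL9 encodes a regulatory light chain of myosin in the contractile machinery of platelets and smooth muscle. It ran from 12.23 through 13.05 to 14.73 before irradiation, was 16.28, 16.30, 16.65 and 15.92 at day 3, ran from 13.86 through 14.52 to 15.73 at day 5 and from 12.66 through 13.31 to 14.68 at day 7. The day 3 arrays were above all others and close to each other. MYL9 had a log2 change at day 3 of 3.10 ± 0.41 (SE), a fold of 8.58, with adjusted p = 0.000378 by limma.

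TUBB1 encodes the beta-tubulin of the platelet's microtubule band. It ran from 9.75 through 10.79 to 11.17 before irradiation, was 13.12, 14.27, 13.31 and 12.47 at day 3, ran from 10.73 through 11.81 to 12.34 at day 5 and from 10.27 through 10.60 to 11.60 at day 7. The day 3 arrays again lay above all others. TUBB1 had a log2 change at day 3 of 2.61 ± 0.34 (SE), a fold of 6.11, with adjusted p = 0.000366 by limma.

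NRGN encodes neurogranin, a calmodulin-binding protein best known from neurons whose transcript is abundant in platelets. It ran from 11.16 through 12.30 to 12.85 before irradiation, was 14.18, 14.79, 13.95 and 13.61 at day 3, ran from 11.79 through 12.10 to 13.04 at day 5 and from 10.05 through 11.23 to 11.63 at day 7. Its day 5 arrays were back among the pre-irradiation arrays except for 1, and 3 of 7 day 7 arrays lay below all of them. The log2 change at day 3 was 1.96 ± 0.32 (SE), the smallest of the members in the fit without a block, with adjusted p = 0.00111 by limma.

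**Figure D1:**
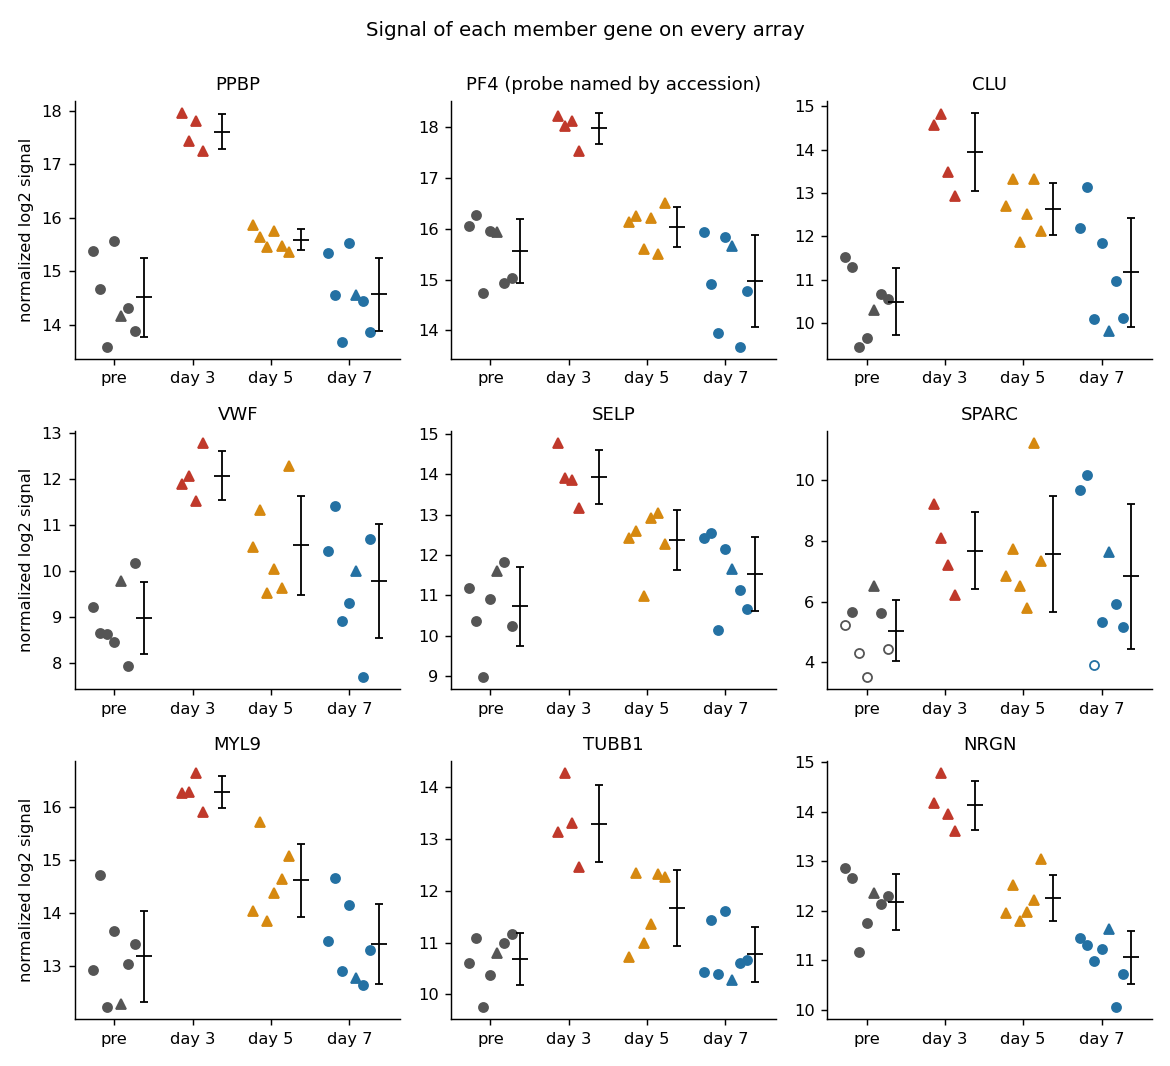
Normalized log2 signal (vertical axes) of the brightest probe of each member gene, and of the PF4 probe matched by accession, on each array before irradiation and at days 3, 5 and 7. Circles are scan session 1 and triangles session 2, open symbols are arrays where the probe was not well above background, and bars give the group mean ± SD (n = 7, 4, 6 and 7), with the 4 day 3 arrays above all pre-irradiation arrays in every panel but that of SPARC.

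With the animal as a block, which compares each day 3 array with the same animal's array before irradiation, 4 of the 8 members rose, against 1.27% of all probes. The called genes were CLU (log2 change 3.19), PPBP (2.74), SELP (3.25) and VWF (2.93), with limma adjusted p from 0.00183 to 0.00220. MYL9 (2.60), TUBB1 (2.48) and NRGN (1.74) lost the call at adjusted p of 0.00501, 0.00628 and 0.00671, and SPARC (2.97) did not pass at 0.00613. All 8 members were higher in 4 of 4 animals. SELP lost its call without replicate 1, 2 or 4 and NRGN without replicate 2 or 4, and SPARC gained one without replicate 5, with the authors' normalized values (2.63, adjusted p = 0.00413 by limma) and with a stricter filter on dim probes (adjusted p = 0.00497).

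The scan session of the day 3 arrays held a single pre-irradiation array, that of replicate 5, so that session and day were nearly confounded. With the session as a block the log2 changes were 1.17 to 3.99, all above 0, and none of the 8 members passed, where 0.129% of all probes did. Within session 2, in 1 fit of all groups that assumes the lone pre-irradiation array to vary like the others, 1 of the 8 members, PPBP, had an adjusted p under the threshold (log2 change 3.44), where 0.498% of all probes did. With a single array in 1 group this does not separate day from session.

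Markers of other blood cells moved at the same time. At day 3 all 7 erythroid markers fell, with summed linear signals of 391620 to 803700 before irradiation and 30678 to 103310 at day 3, and 5 of 5 tested B cell markers fell from sums of 27846 to 38616 to sums of 1473 to 4092. Of 6 tested T cell markers 2 fell, IL7R and TCF7, with sums of 42049 to 76392 at day 3, against 78197 to 150690 before, and 1 fell with the animal as a block. Among 6 neutrophil markers 1 rose and among 5 tested monocyte markers 1 rose, with sums of 69272 to 152960 and 109700 to 161520 at day 3, against 27500 to 92736 and 74599 to 128780 before. With the animal as a block no neutrophil or monocyte marker passed. With the session as a block 0 of 7 erythroid and 1 of 5 B cell markers fell. The shares of all probes are 6.08% higher and 7.32% lower without a block. With the animal as a block 1.27% rose, and with the session as a block 0.129% passed in either direction. The part of these cells in the members' change was not tested.

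At day 5 the members lay between their day 3 and pre-irradiation levels. CLU alone rose by limma, 1 of 8 members, where 16.9% of all probes passed, 7.53% higher and 9.39% lower. CLU had a log2 change of 2.14 ± 0.36 (SE), a fold of 4.42, and adjusted p = 0.000511. It was also the 1 member whose day 5 arrays all lay above the pre-irradiation arrays, as in 6% of all probes. The median log2 change of the 8 members was 1.505, from 0.07 to 2.53, and that of all probes was 0.04.

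The other members did not pass the threshold at day 5. SPARC had a log2 change of 2.53 ± 0.74 (SE), SELP of 1.64 ± 0.44, VWF of 1.57 ± 0.47, MYL9 of 1.44 ± 0.40, PPBP of 1.08 ± 0.29 and TUBB1 of 0.98 ± 0.32, with limma adjusted p from 0.0109 to 0.0272. NRGN, at 0.07 ± 0.28, and PF4, at 0.48 ± 0.28, were nearest to their pre-irradiation levels.

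With the animal as a block 6 of 8 members rose, against 6.45% of all probes: CLU (log2 change 2.11), SPARC (2.78), SELP (1.79), VWF (1.70), MYL9 (1.29) and TUBB1 (1.0013), with limma adjusted p from 0.000508 to 0.00424. PPBP (1.03) did not pass at 0.00987, nor did NRGN (0.11) at 0.734. In 6 of 6 animals CLU, SELP, VWF, SPARC, MYL9, TUBB1 and PPBP were higher at day 5 than before irradiation, and NRGN was higher in 4 and lower in 2.

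All 6 day 5 arrays belong to session 2 too. With the session as a block none of the 8 members passed at day 5, where 1.49% of all probes did, and the log2 changes ran from -0.11 for NRGN to 2.33.

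The markers of other blood cells had moved at days 5 and 7 too. All 7 erythroid markers fell on both days, with median log2 changes of -6.17 and -4.95, as did 5 of 5 B cell markers, with medians of -3.91 and -3.66. Without a block CSF3R and S100A12 of the neutrophil markers rose at day 5 and S100A12 at day 7. At day 5 FCN1 of the monocyte markers rose and 1 of 6 T cell markers fell. Of all probes 7.53% rose and 9.39% fell on day 5, and 3.8% and 7.11% on day 7. Blocking on the animal removed the day 5 calls of S100A12 (limma adjusted p = 0.017) and FCN1 (0.00592) and no other of these. There 6.45% of all probes rose on day 5 and 2.61% on day 7. On day 5 a session block left no neutrophil, monocyte or T cell call. It left 6 of 7 erythroid and 4 of 5 B cell markers lower, where 1.49% of all probes passed. The day 7 counts did not change. The part of these cells in the members' changes was not tested.

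At day 7 none of the 8 members passed by limma, where 10.9% of all probes did (3.8% higher and 7.11% lower). An unadjusted p under 0.05 was found in 1 of 8, and the share of all probes under it was not counted. The median log2 change was 0.46, and the members spread from -1.12 to 1.78, above and below their pre-irradiation levels. The gene at the low end was NRGN, at -1.12 ± 0.28 (SE) with adjusted p = 0.00897 by limma, and it was lower in 7 of 7 animals, by 0.17 to 2.09. PF4, at -0.60 ± 0.39, was also lower in 7 of 7 animals without passing (adjusted p = 0.268 by limma).

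PPBP, TUBB1 and MYL9 were close to where they started, with log2 changes of 0.06 ± 0.36 (SE), 0.09 ± 0.27 and 0.24 ± 0.40. CLU (0.68 ± 0.51), SELP (0.80 ± 0.46), VWF (0.80 ± 0.51) and SPARC (1.78 ± 0.88) had higher means in their brightest probes and did not pass. The second SELP probe had a lower mean, at -0.20 ± 0.43, so the direction of SELP at day 7 depended on the probe. VWF, SPARC and the brightest SELP probe were each higher in 6 of 7 animals, the second SELP probe in 2, CLU in 5 and MYL9 in 4, and PPBP and TUBB1 in 3. In no member did all day 7 arrays lie above, or all below, the pre-irradiation arrays, as in 2.87% and 5.66% of all probes. No member passed with the animal as a block either, where 8.44% of all probes did. Among the 6 animals with both arrays in session 1, the changes ran from -1.18 for NRGN to 1.90 for SPARC, and none passed.

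**Figure D2:**
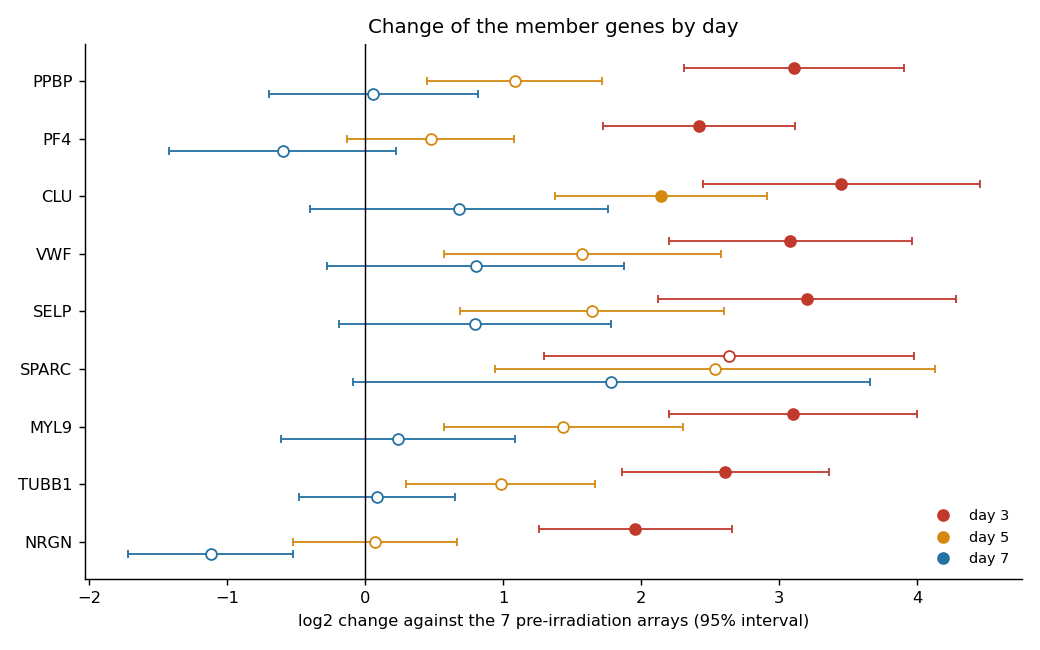
Log2 change of each member gene at days 3, 5 and 7 against the 7 pre-irradiation arrays (horizontal axis), with 95% intervals from limma and filled symbols for an adjusted p under 0.005. The day 3 changes lie between 1.96 and 3.45, and at day 7 NRGN and PF4 lie below 0 while SPARC, SELP, VWF and CLU lie above it with wide intervals.

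The fall from day 3 was tested by comparing the days with each other. Between days 3 and 5, PPBP alone fell, 1 of 8 members against 0.0258% of all probes, with a log2 change of -2.02 ± 0.19 (SE) and adjusted p = 0.00304 by limma. In 5 members every day 5 array lay below all day 3 arrays, as in 2.47% of all probes, and the members' log2 changes ran from -2.02 to -0.10 with a median of -1.59. Of 8 members 7 had an unadjusted p under 0.05, and the share of all probes under it was not counted. The call of PPBP was lost without any 1 of the replicates and with the animal as a block, where its log2 change was -1.96 (adjusted p = 0.0678 by limma) and 0% of all probes passed.

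From day 3 to day 7, 4 of 8 members fell by limma, where 1.22% of all probes passed, 0.995% lower and 0.229% higher. The log2 changes were -3.08 ± 0.31 (SE) for NRGN, -3.05 ± 0.35 for PPBP, -2.86 ± 0.37 for MYL9 and -2.52 ± 0.36 for TUBB1, with adjusted p from 0.000599 to 0.00284. PF4 had -3.01 ± 0.43, with adjusted p = 0.00293. In 6 members all 7 day 7 arrays lay below the day 3 arrays, as in 6.84% of all probes. CLU (-2.77 ± 0.63), SELP (-2.40 ± 0.48) and VWF (-2.28 ± 0.59) did not pass, with adjusted p from 0.00897 to 0.0243 by limma, and SPARC had a log2 change of -0.85 ± 1.13.

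These calls rested on few day 3 arrays. None of the 4 held without replicate 1 or without replicate 4, and 1 held without replicate 7. With the animal as a block the log2 changes of the 4 were -2.95 to -2.26 at adjusted p of 0.00552 to 0.00751 by limma, and no probe of the array passed. With the session as a block no member passed either, at log2 changes of -4.11 to -0.06.

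Between days 5 and 7 no member passed by limma, where 0.00369% of all probes did. At the looser threshold of an unadjusted p under 0.05 there were 5 of 8, and the share of all probes there was not counted. The log2 changes ran from -1.47 for CLU to -0.75 for SPARC. NRGN, at -1.19 ± 0.27 (SE) and adjusted p = 0.0369, was the member in which every day 7 array lay below all day 5 arrays, as in 1.42% of all probes.

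Relative to the pre-irradiation mean, the mean log2 level of the 8 members lay between -0.96 and 0.41 on the pre-irradiation arrays. It lay between 2.31 and 3.27 on day 3, between 0.64 and 2.01 on day 5, and between -0.60 and 1.68 on day 7. Replicate 3 had the lowest mean before irradiation (-0.96), at day 5 (0.64) and at day 7 (-0.60), and replicate 2 the highest at day 7 (1.68). Before irradiation replicates 1 and 2 were highest, at 0.39 and 0.41, and at 0.42 and 0.39 without SPARC. On the 4 day 3 arrays 8, 8, 8 and 7 members exceeded the pre-irradiation range.

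At day 7 the means of replicates 1, 2 and 4 were 1.20, 1.68 and 0.67, and those of replicates 3, 6 and 7 were below 0. Without SPARC the means were 0.71 and 1.19 for replicates 1 and 2, and 0.73 for replicate 4, where SPARC made little difference. Replicate 6 went from 2.01 at day 5 to -0.29 at day 7, and from 1.42 to -0.46 without SPARC. Replicate 1 had means of 1.16 and 1.20 on these days, and of 1.06 and 0.71 without SPARC.

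**Figure D3:**
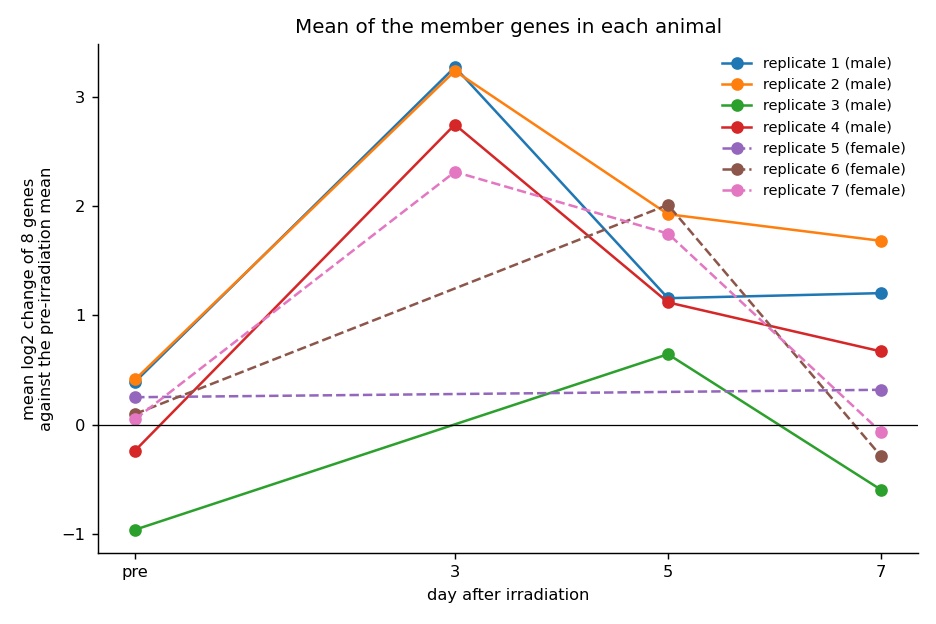
Mean log2 change of the 8 member genes relative to the pre-irradiation mean (vertical axis) by day (horizontal axis), with 1 line for each animal, solid for males and dashed for females, and straight across days without an array. Day 3 means lie between 2.31 and 3.27, and the day 7 means spread from -0.60 to 1.68.

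The responses of the sexes at day 7 did not differ at an adjusted p under 0.05 in any of the 8 members by limma, nor in any probe of the array. In a fit without the animal none of the 8 had an unadjusted p under 0.05. The difference of the responses, female minus male, ran from -1.89 ± 1.84 (SE) for SPARC to 0.18 ± 0.70 for PPBP, with adjusted p from 0.585 to 0.956. In CLU the response was 1.34 in 4 males and -0.20 in 3 females, in SELP 1.45 and -0.07, and in TUBB1 0.51 and -0.47. The standard errors of these differences were 0.93, 0.91 and 0.50, with 4 males and 3 females.

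In the fit that blocks on the animal, 3 of 8 members (CLU, SELP and TUBB1) had an unadjusted p under 0.05, as did 11% of all probes, and none of the 8 members and no probe passed after adjustment (adjusted p = 0.383, 0.374 and 0.419 by limma). The standard errors in that fit were 0.48, 0.40 and 0.37. CLU, SELP and TUBB1 were picked by their unadjusted p, and how often the sexes separate over all probes was not counted. For CLU the day 7 changes were 0.65 to 2.205 in the 4 males against -0.47 to 0.30 in the 3 females. For SELP they were 1.16 to 2.17 against -0.69 to 0.42, and for TUBB1 -0.17 to 1.23 against -0.52 to -0.40. The sexes overlapped in the second SELP probe.

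The members followed one another closely over the 24 arrays, which share animals and sessions. Each gene's correlation with the mean of the other 7 was 0.93 for CLU, 0.90 for SELP, 0.89 for TUBB1, 0.88 for MYL9, 0.83 for PPBP, 0.75 for VWF, 0.73 for NRGN and 0.57 for SPARC. Among 10875 other genes with a symbol, those whose signal was most like the members' mean included ITGA2B (r = 0.97) and ITGB3 (0.94), the subunits of the fibrinogen receptor, TREML1 (0.95), a receptor stored in alpha granules, and PLXNB3 (0.93), a plexin.

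These genes were chosen by their likeness over the same arrays, so their changes are a description. At day 3 ITGA2B rose by 3.18 ± 0.38 (SE) on the log2 scale, TREML1 by 2.99 ± 0.35 and PLXNB3 by 3.11 ± 0.23, with limma adjusted p from 1.03e-05 to 0.000204. ITGB3 was well above background on no pre-irradiation array and was at least 4.42-fold higher at day 3. At day 7 ITGA2B, TREML1, ITGB3 and PLXNB3 did not pass.

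Other genes of the platelet were counted from 5 lists, in fits without a block. The shares of all probes to read these counts against are 6.08% higher and 7.32% lower at day 3, 7.53% and 9.39% at day 5, and 3.8% and 7.11% at day 7. In fits that block on the animal, the day 3 counts of genes that rose were 6 of 8 adhesion receptor genes, 7 of 17 other alpha-granule and releasate genes, 5 of 20 shape and cytoskeleton genes, 1 of 12 genes of granule formation and release and 0 of 9 genes of megakaryocyte transcription and growth factor receptors, where 1.27% of all probes rose. At day 5 the block gave 2, 4, 3, 5 and 1 genes that rose, in the same order, and at day 7 it gave 0, 2, 0, 1 and 0, where 6.45% and 2.61% of all probes rose. Counts of 1 or 2 genes at day 5 or day 7 are too few to be read as results about a list. With the session as a block no gene of the 5 lists rose at day 3 or day 5. Every call from day 3 to day 7 in these lists was lost with either block, since no probe of the array passed there.

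All 8 tested adhesion receptor genes rose at day 3, with a median log2 change of 2.77. They included ITGA2B, ITGB3 and GP1BA, the receptor chain for von Willebrand factor, which was well above background on no pre-irradiation array and at least 3.34-fold higher at day 3 (limma adjusted p = 4.18e-05). At day 5 ITGA2B alone rose, by 1.64 ± 0.36 (SE), and at day 7 none did. From day 3 to day 7, 3 of 8 fell: ITGB3 (-2.69 ± 0.43), GP9 (-2.51 ± 0.39) and ITGA2B (-2.50 ± 0.41).

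Of 17 other alpha-granule and releasate genes, 10 rose and none fell at day 3, with a median of 1.56. The largest changes were those of TREML1 and of TIMP1 (2.89 ± 0.23), an inhibitor of matrix metalloproteinases. At day 5, 3 rose and 1 fell, and at day 7, 1 rose and 1 fell, which for 17 genes is near the share of all probes. The gene that fell was ANGPT1, an angiopoietin that stabilizes vessels (log2 change -1.75 ± 0.24 at day 5 and -2.23 ± 0.25 at day 7), with limma adjusted p of 0.000105 and 2.59e-05. From day 3 to day 7, 6 of the 17 fell, among them PDGFB (-3.10 ± 0.35).

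Of 20 tested shape and cytoskeleton genes, 9 rose at day 3 with a median of 0.82, led by ABLIM3 (2.60 ± 0.33), MYLK (2.09 ± 0.41), the kinase of the myosin light chain, and TUBA8 (2.04 ± 0.45). FLNA (1.28 ± 0.19) and VCL (1.01 ± 0.18), filamin and vinculin of the actin cytoskeleton, were the 2 higher at day 5, and none was called at day 7. From day 3 to day 7, TUBA8 (-2.56 ± 0.43) and MYLK (-2.40 ± 0.39) fell, and no other of the 20 was called.

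Of 12 tested genes of granule formation and release, 6 rose at day 3 with a median of 1.04, 4 rose and 1 fell at day 5, and 3 rose at day 7. RAB27B (1.83 ± 0.30), STXBP2 (1.71 ± 0.19) and NBEAL2 (1.55 ± 0.30), the gene of gray platelet syndrome, led at day 3. At day 5 NBEAL2 (1.64 ± 0.22), STX11 (1.51 ± 0.26), STXBP2 (1.36 ± 0.16) and LYST (1.27 ± 0.20) rose, and VAMP8, a SNARE protein of platelet secretion, fell (-1.04 ± 0.14), LYST and VAMP8 being named after their values were seen. NBEAL2, LYST and UNC13D were the 3 higher at day 7, by 1.59 ± 0.25, 1.01 ± 0.17 and 0.88 ± 0.19 (limma adjusted p from 0.000403 to 0.00286). Several of these genes are also used for granules of leukocytes, and the part of leukocytes in their change was not tested.

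Of 9 tested genes of megakaryocyte transcription and growth factor receptors, GFI1B (1.76 ± 0.32) and SRF (1.02 ± 0.21) rose at day 3, the median being 0.70. At day 5 SRF rose (0.92 ± 0.16) and TAL1 fell (-2.15 ± 0.18). At day 7, 3 fell, among them GATA1 (-1.83 ± 0.31) and TAL1 (-2.03 ± 0.23). From day 3 to day 7, GFI1B (-2.74 ± 0.36), GATA1 (-2.53 ± 0.40) and MEIS1 (-2.24 ± 0.36) fell, and no other of the 9 was called. GATA1, TAL1 and GFI1B also act in red cell precursors, whose 7 markers fell on all 3 days.

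**Figure D4:**
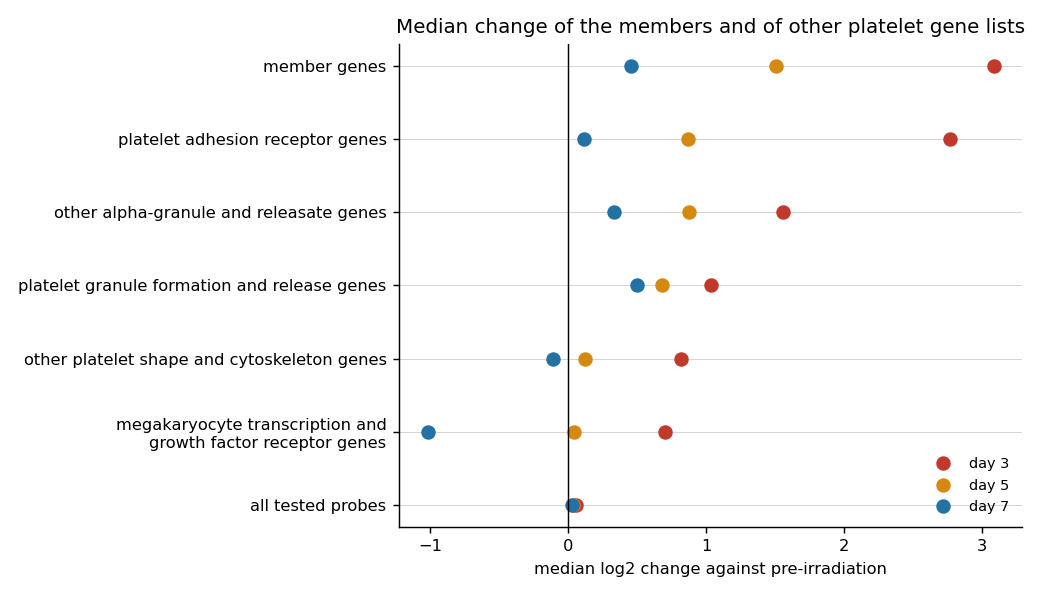
Median log2 change against the pre-irradiation arrays (horizontal axis) of the 8 member genes, of 5 other lists of platelet genes and of all tested probes (rows) at days 3, 5 and 7. The members' medians are 3.09, 1.505 and 0.46, and those of all probes 0.06, 0.04 and 0.03.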

How the data were processed

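RNA of PAXgene whole blood was hybridized to one-colour Agilent arrays. The labels and the file header name a rhesus design, the methods a human array. Per the deposited scanner files, the processed signal is a background-subtracted intensity, made with Agilent Feature Extraction (10.7 per the labels, 12.0.2.2 per the file headers). The authors' deposited series matrix holds log2 intensity normalized to the median array. Its scale and direction were checked: at least 99.9% of probes lay within 0.01 of the scanner's log2 value plus 1 constant per array (column medians 7.37 to 7.70).

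Here log2 processed signals were averaged over the spots of a probe, without outlier spots and with saturated ones, and shifted to the median array. Of 43603 probes, the 27133 that 4 or more of 24 arrays showed well above background were tested in R 4.3.3 with limma 3.58.1, in fits of the 2 groups compared, two-sided. A gene is its brightest probe. Adjusted p (Benjamini-Hochberg) under 0.005 made a call, and under 0.05 for the sex interaction. A fold against a group with no array well above background is a bound: the bright group's mean over, on each array, the lowest signal that is well above background, or the dim probe's signal where higher. The test was checked on simulated data. Names came from the scanner output (23054 probes) or accessions (898), and 19651 had none. Figures used Python 3.11.15 with matplotlib 3.10.9.

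The members and gene lists were chosen with earlier results of these data known. Named are all members, the 3 called genes of a list with the largest change on a day, and the 5 genes most like the members, and some genes that this rule names are not reported here. Comparisons against pre-irradiation share its 7 arrays. Numbers mark animals and pair the samples: deviations from the group mean correlated between same-numbered arrays (r 0.132 to 0.648 over the 6 comparisons). The fits without a block take arrays of the same animal as independent, so their p-values do not use the pairing. With the animal as a block the p-values rest on the spread within animals. All of them cover these animals only. Alternatives were 2 other normalizations, normexp background correction, the authors' values, filters, probe choice, 1 fit of all groups, blocks for animal, slide and session, each session alone, and leaving out each replicate.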

Additional observations from a re-analysis of the deposited data

Results flagged for a closer look

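In 2 of the 32 combinations of 8 member genes and 4 groups, 1 array lay far from the others of its group, where chance alone gives about 1 in 20 groups. For SELP at day 5, replicate 3 had a log2 signal of 10.97, below the next lowest array of 12.28 (n = 6). This animal also had the lowest SELP signals before irradiation and at day 7. For SPARC at day 5, replicate 6 had a log2 signal of 11.24, above the next highest array of 7.75 (n = 6), and it was the array with the highest stromal marker sum of its day.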

How the results depend on the processing

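The signs held best at day 3: no member gene changed sign under any alternative run against pre-irradiation. Over all comparisons, 876 of 896 values under an alternative kept their sign. The 20 others concerned 6 pairs of gene and comparison, none of them called, and the cause was not tested.

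The count of 7 members called at day 3 was 8 with the authors' normalized values and with a stricter filter on dim probes, 4 with the replicate block (animal), 0 with the slide block, 0 with the scan session block and 1 within scan session 2, and 5 to 8 without each replicate. The count of 1 at day 5 was 2 with quantile normalization, 0 with normexp background, 6 with the replicate block and 0 both with the session block and within session 2, and 1 to 2 without each replicate, where leaving out replicate 2 added MYL9 (1.47) and replicate 3 SELP (1.63). At day 7 the count of 0 was 1 (NRGN) in 1 fit of all groups, and 0 without each replicate. The count of 1 between days 3 and 5 was 0 with normexp background, no filter, 1 fit of all groups, the replicate block and the slide block, and 0 without each replicate. The count of 4 between days 3 and 7 was 0 with the replicate, slide and session blocks and within session 2, and 0 to 4 without each replicate. The counts of 0 between days 5 and 7 and for the sexes did not change, and the replicate block changed no other count. Counting PF4 as a ninth member, an alternative chosen after seeing the data, gave 8, 1, 0, 1, 5 and 0 calls. Slide blocks at day 5 and between days 5 and 7, and session 1 for comparisons with day 3 or 5, could not be fitted.

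NRGN at day 5 against pre-irradiation had -0.31 with normexp, -0.11 with the session block and within session 2, -0.0044 without replicate 3 and -0.0632 without replicate 7 (up to 0.25 without the others). At day 7, within session 2, CLU had -0.47 and TUBB1 -0.52, and TUBB1 had -0.0026 without replicate 3 and -0.10 without replicate 4 (up to 0.19 without the others). SPARC between days 3 and 5 had 0.32 with normexp, 0.64 with the slide block and 0.55, 0.0061, 0.11 and 0.09 without replicates 1 to 4 (down to -0.83 without the others). Between days 3 and 7 it had 0.0635 and 0.92 with normexp and the slide block, and between days 5 and 7 it had 0.0435 with the session block and within session 2 and 0.13 without replicate 6 (down to -1.37 without the others). Normexp left SPARC log2 changes of 0.65, 0.97 and 0.72 at days 3, 5 and 7. Means without SPARC and list counts with a block were also chosen after seeing the data.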
